A study of Drosophila melanogaster with 8 samples.

Results

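Potassium channel genes were followed through the loss of neuronal RNA-binding proteins in the larval brain and ventral nerve cord of Drosophila melanogaster. The set was given by symbol and comprised 10 pore-forming genes, Sh, Shab, Shal, Shaw, eag, sei, Elk, KCNQ, slo and SK, and all 10 were found among the 17807 genes of the deposited table. The RNA came from the whole dissected central nervous system (CNS) of L1 larvae, the earliest larval stage. Wild-type larvae of the Canton-S strain are represented by 3 libraries, the elav5 mutant by 2 (the single mutant; elav5 removes elav by deletion) and elav5/fne, in which a deletion of fne is added, by 3 (the double mutant). Both deletions are present in every cell of the animal, homozygous larvae were picked by a visible marker, and the labels do not say whether the mutants share the genetic background of Canton-S or how many animals went into a library.

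elav and fne belong to the ELAV/Hu family, RNA-binding proteins of neurons that steer how transcripts are spliced and where their 3' ends fall. Potassium channels let potassium leave the cell, and so end the action potential, set the resting potential and limit repetitive firing. Sh, Shab, Shaw and Shal are, in this order, the founding members of the Kv1 to Kv4 families of voltage-gated channels, which were first isolated in the fly. The eag family (eag, sei and Elk) and KCNQ are voltage-gated as well, whereas slo and SK open when calcium enters the cell. Several of these channels, among them Sh, Shab, Shal and slo, are also known from the body-wall muscle of larvae.

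The libraries held 30038106 to 38056274 reads counted in genes, and expression is given as reads per 1000000 counted reads (CPM). The 10 genes were covered by at least 528 reads each in every library. In Canton-S elav stood at 599 to 620.3 CPM, against 24.4 and 33.4 CPM in elav5 and 53.2 to 61.0 CPM in elav5/fne. The corresponding values of fne were 960 to 1045, 938 and 1129, and 127 to 179 CPM. Every mutant library was thus below every Canton-S library for each gene its label names, with some reads left at both genes. All 13 neuronal markers, led by cpx and Appl, were expressed in every group, with a summed level of 18393 to 19112 CPM in Canton-S, 15621 to 17101 CPM for elav5 and 9371 to 10780.5 CPM for elav5/fne. Some libraries stood apart in other tissues. The summed level of 13 muscle markers was 1300.3 to 1672 CPM in Canton-S, 825 and 2704 CPM for elav5 and 2799.6, 6297 and 15614 CPM for elav5/fne, and that of 7 gut markers reached 404 CPM in double mutant replicate 3. The summed level of 5 fat body markers was 603 CPM in Canton-S replicate 2 and at most 3.80 CPM elsewhere.

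In Canton-S the 10 genes differed widely in level, and comparison between genes was made per kilobase of annotated exon, since a longer transcript yields more reads. Shal was the highest at 103 ± 5.64 CPM per kb (SD, n = 3), followed by slo at 90.9 ± 2.10, Shaw at 74.5 ± 1.13 and Shab at 61.7 ± 2.07 CPM per kb. A lower group began with SK at 33.4 ± 0.557 and Elk at 32.1 ± 1.19 CPM per kb, whose libraries overlapped. Then came Sh at 25.2 ± 0.357, sei at 20.4 ± 1.98, eag at 18.8 ± 0.377 and KCNQ at 15.8 ± 0.498 CPM per kb. No other neighbours in this order overlapped, although sei and eag were separated only by 19.2 against 19.1 CPM per kb in their nearest libraries. The exonic length counts every annotated isoform, and the libraries need not use all of it, so the order holds for this length only. It was largest for Sh, whose 17 annotated transcripts cover 22.8 kb of exon. For slo, eag, SK and Shab it was 10.2 to 11.4 kb.

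**Figure D1:**
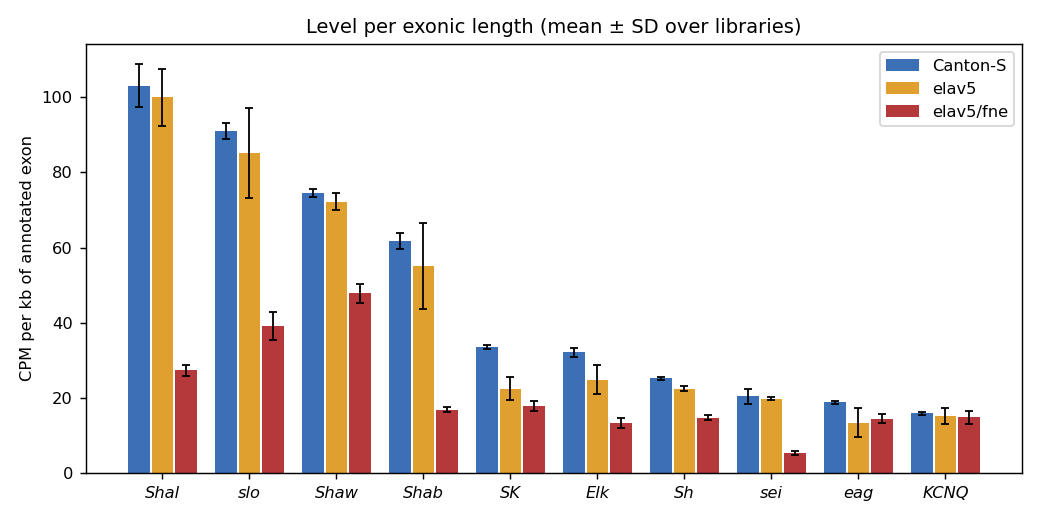
Level of each gene in CPM per kilobase of annotated exon (vertical axis), as mean ± SD over the libraries of Canton-S (n = 3), elav5 (n = 2) and elav5/fne (n = 3). Shal leads in Canton-S at 103 CPM per kb, while Shaw leads in elav5/fne at 47.8 CPM per kb.

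The first comparison set the double mutant, mutant for elav and fne, against Canton-S. Of the 10 potassium channel genes 9 were lower and none was higher, and these 9 had libraries that did not overlap between the groups. The 3 deepest falls were those of Shal, sei and Shab, to 26.5%, 25.9% and 27.3% of the Canton-S mean. Elk and slo fell to 41.6% and 43.0%, SK to 53.4%, Sh to 58.5%, Shaw to 64.2% and eag to 76.8%, whereas KCNQ stood at 93.5% and did not pass the test. Of all 10575 genes tested, 26.7% were called lower, 32.5% higher and 59.2% in either direction, and 31.9% were lower with groups that did not overlap. With any 1 Canton-S or double mutant library left out, 8 of the 10 genes were called lower. In those fits 2310 to 2812 of all genes tested were called lower. The median log2 change was -1.06 over the 10 genes and 0.07 over all genes tested. It was -1.02 and 0.03 with single mutant replicate 2 and double mutant replicate 3 left out, an alternative chosen after the data were seen. Calls are from limma on log2(CPM + 1), with p-values adjusted over all genes tested and a threshold of 0.05. In whole tissue, fewer cells of a type and less RNA per cell cannot be told apart.

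**Figure D2:**
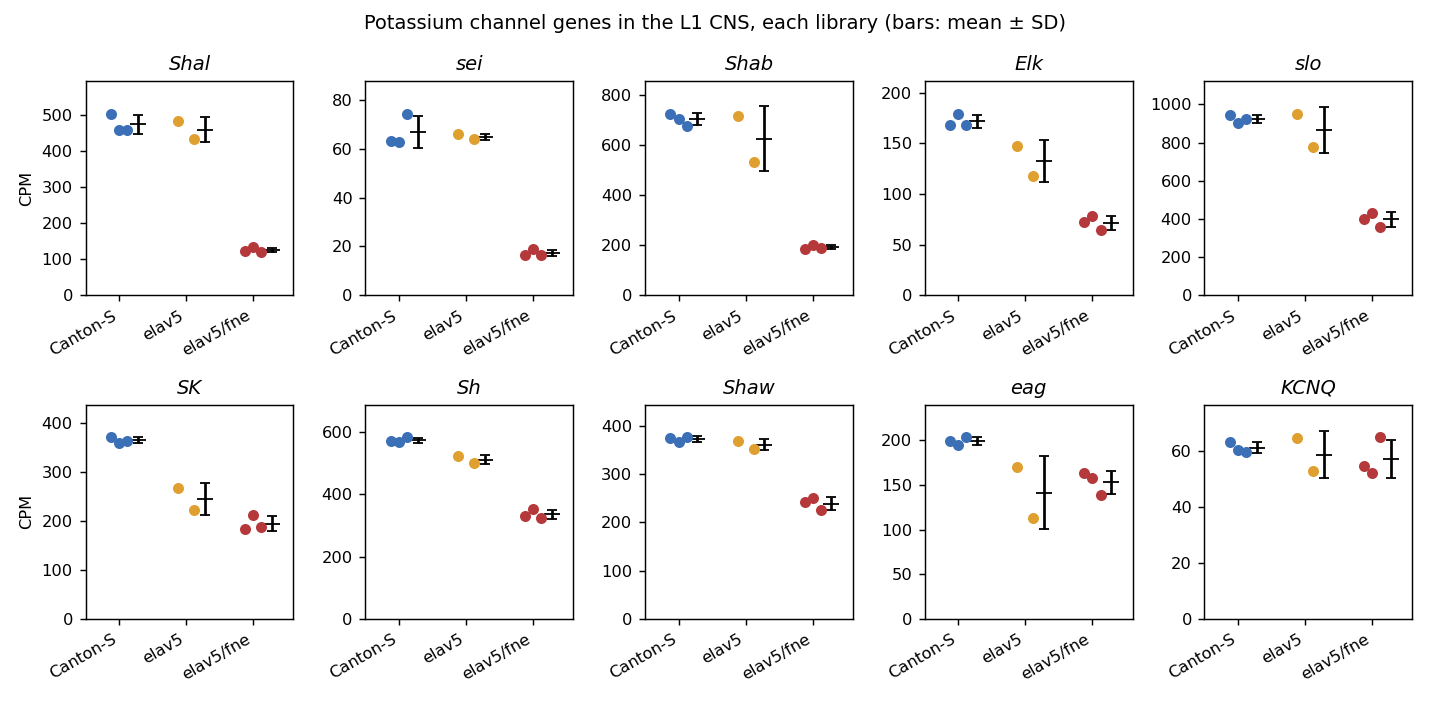
CPM of each gene in each library (points, vertical axis from 0), with the mean ± SD of the group beside them, ordered by the change between elav5/fne and Canton-S. For Shal, sei and Shab the elav5/fne libraries lie far below the others, and for KCNQ the groups overlap.

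Among the Kv genes, Shal (FBgn0005564, 3L, 19566851 to 19584568 in the Release 6 assembly, minus strand) encodes the channel of the transient A-type current of neuronal cell bodies and dendrites. In Canton-S it stood at 505, 459 and 460.4 CPM, in elav5 at 485 and 436 CPM, and in elav5/fne at 124, 134 and 121 CPM. The single mutant lay within or near the Canton-S range, and every double mutant library was far below both. Between the double mutant and Canton-S the log2 change was -1.90 (standard error, SE, 0.08, adjusted p = 1.8e-06 by limma).

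Shab (FBgn0262593, 3L, 2895017 to 2959579, plus strand) carries most of the slow delayed rectifier current that repolarises the cell. The Canton-S libraries held 724, 703 and 677 CPM, elav5 716 and 532 CPM, and elav5/fne 186, 199.6 and 189.6 CPM. The double mutant libraries were tightly grouped, while the pair of single mutant libraries was split, replicate 2 being the lower. The log2 change in the double mutant was -1.87 (SE 0.11, adjusted p = 5.6e-06 by limma).

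Sh (FBgn0003380, X, 17924307 to 18063247, minus strand), the Shaker gene, encodes the fast inactivating A-type channel of axons and muscle. Canton-S had 571, 567 and 583 CPM, elav5 522 and 501 CPM, and elav5/fne 329, 353 and 326 CPM. The 3 genotypes formed 3 ranges that did not overlap. The log2 change in the double mutant was -0.77 (SE 0.06, adjusted p = 2.9e-05 by limma).

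Shaw (FBgn0003386, 2L, 3718185 to 3729145, plus strand) encodes a weakly voltage-dependent channel that contributes to the resting potential. Canton-S had 375, 366 and 376 CPM, elav5 369 and 353 CPM, and elav5/fne 242, 250.2 and 225 CPM. The fall in the double mutant was the smallest among the 4 Kv genes, with a log2 change of -0.64 (SE 0.06, adjusted p = 9.1e-05 by limma). The 95% intervals of the log2 change were -0.79 to -0.49 for Shaw and -0.91 to -0.63 for Sh, against -2.08 to -1.73 for Shal and -2.12 to -1.62 for Shab.

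Within the eag family the changes were unequal. sei (FBgn0003353, 2R, 24047411 to 24053035, plus strand), the seizure gene and fly member of the ERG channels, keeps neurons from firing out of control at high temperature. Canton-S gave 63.3, 62.8 and 74.3 CPM, elav5 65.8 and 63.8 CPM, and elav5/fne 16.45, 18.9 and 16.6 CPM. The log2 change in the double mutant was -1.88 (SE 0.10, adjusted p = 3.1e-06 by limma). sei shares 359 bases of its 3278 exonic bases with gammaSnap1 and 119 with ppk29, both on the opposite strand. From Canton-S to the double mutant gammaSnap1 went from 134.5 to 72.7 CPM and ppk29 from 1.16 to 0.354 CPM. Since the sources used here do not give the use of strand in counting, reads of the shared stretches cannot be assigned with certainty.

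Elk (FBgn0011589, 2R, 17873939 to 17926695, plus strand) encodes the Elk-type channel of the same family. The Canton-S libraries held 168, 179 and 168 CPM, elav5 148 and 118 CPM, and elav5/fne 72.2, 78.1 and 64.4 CPM. The 3 genotypes were ordered without overlap, Canton-S highest and the double mutant lowest. The log2 change in the double mutant was -1.26 (SE 0.10, adjusted p = 3.5e-05 by limma).

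eag (FBgn0000535, X, 14955477 to 15009989, plus strand), named ether-a-go-go for the leg shaking of its mutants under ether, had a small difference. Canton-S had 199, 195 and 203 CPM, elav5 170.5 and 113 CPM, and elav5/fne 163, 158 and 139 CPM. Both mutants were below Canton-S, and the double mutant lay between the pair of single mutant libraries. The log2 change in the double mutant was -0.38 (SE 0.14, adjusted p = 0.049 by limma), close to the threshold. The call was lost without any 1 of the 3 Canton-S or 3 double mutant libraries (adjusted p = 0.0596 to 0.121 by limma), and over 20 alternatives the adjusted p ran from 0.00252 to 0.121.

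KCNQ (FBgn0033494, 2R, 10145897 to 10192394, minus strand) encodes the fly channel of the M-type current, which damps excitability. Canton-S gave 63.5, 60.6 and 59.9 CPM, elav5 64.7 and 53.0 CPM, and elav5/fne 54.8, 52.3 and 65.0 CPM. The groups overlapped. The log2 difference in the double mutant was -0.10 (SE 0.11, 95% interval -0.35 to 0.15, adjusted p = 0.44 by limma). Without double mutant replicate 3 and single mutant replicate 2 it was -0.19 and was called (adjusted p = 0.0461 by limma), and under the other 19 alternatives the adjusted p ran from 0.134 to 0.806. KCNQ shares 265 exonic bases with CG18011 and 798 with asRNA:CR45133 (at most 0.84 CPM), both on the opposite strand. mlt overlaps its span on the same strand but shares no exonic bases with it. CG18011 went from 17.8 to 42.8 CPM and mlt from 83.1 to 151 CPM between Canton-S and the double mutant, and their part in the level counted for KCNQ was not tested.

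The calcium-activated channels both fell. slo (FBgn0003429, 3R, 24662491 to 24711595, plus strand), slowpoke, encodes the large-conductance BK channel, opened by calcium and voltage together. Canton-S gave 944, 901 and 924 CPM, elav5 951 and 779 CPM, and elav5/fne 400.2, 433 and 358 CPM. The single mutant spanned the Canton-S range and the double mutant was below it in all 3 libraries. The log2 change was -1.22 (SE 0.10, adjusted p = 3.6e-05 by limma).

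SK (FBgn0029761, X, 5340236 to 5405138, plus strand) encodes the small-conductance channel gated by calcium alone, which shapes the pause after a burst of spikes. The Canton-S libraries held 370.3, 358 and 364 CPM, elav5 267 and 221 CPM, and elav5/fne 183, 211 and 189 CPM. Each step from Canton-S to the single and to the double mutant was free of overlap. The log2 change in the double mutant was -0.91 (SE 0.09, adjusted p = 8.8e-05 by limma).

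The order of the levels per kilobase differed in the double mutant. Shaw was the highest there at 47.8 ± 2.58 CPM per kb, followed by slo at 39.1 ± 3.71 and Shal at 27.4 ± 1.46 CPM per kb, and these neighbours did not overlap. SK, Shab, KCNQ, Sh, eag and Elk followed between 17.8 and 13.4 CPM per kb, with every pair of neighbours overlapping. sei was the lowest at 5.29 ± 0.427 CPM per kb. The summed CPM of the 10 genes was 3909 ± 67.5 in Canton-S, 3465 ± 417 in the single mutant and 1784 ± 98.5 in the double mutant.

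Marker genes of cell types moved in the same comparison. Of the 13 neuronal markers 11 were lower and none higher, with a median log2 change of -0.93, beside -1.06 for the potassium channel genes. The markers ran from -3.06 (VGAT) to -0.11 (Appl), and the potassium channel genes from -1.9 (Shal) to -0.1 (KCNQ). All 8 neuroblast markers rose, and 10 of 13 muscle markers rose, with medians of 2.07 and 2.13. The 8 glial markers had 3 lower and none higher. The summed muscle level differed more than 5-fold among the double mutant libraries, while the summed level of the potassium channel genes was 1771, 1888 and 1692 CPM in the same libraries. The part of cell composition in the potassium channel values was not tested.

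**Figure D3:**
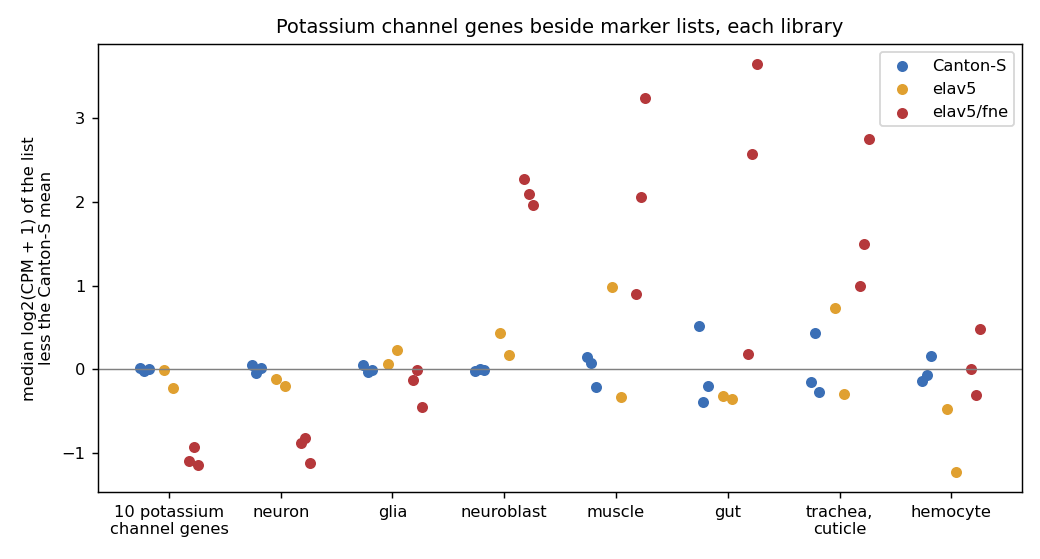
Median over each list of log2(CPM + 1) less its Canton-S mean (vertical axis), 1 point per library. In elav5/fne the potassium channel genes lie at -1.15 to -0.94 and the neuronal markers at -1.12 to -0.83, while neuroblast and muscle markers lie above 0.

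The second comparison set the single mutant, mutant for elav alone, against Canton-S. SK fell, and none of the other 9 genes passed the test. Its log2 change was -0.58 (SE 0.10, adjusted p = 0.0091 by limma), to 67.1% of the Canton-S mean, in both single mutant libraries and under all 20 alternatives (adjusted p = 0.000252 to 0.0439). Of all genes tested 11.8% were called lower, 8.29% higher and 20.1% in either direction, so 1 lower call among 10 genes is near the background. In the same comparison neuronal markers had 4 of 13 lower, neuroblast markers 3 of 8 higher and glial markers 2 of 8 higher, and their part in the fall of SK was not tested. The median log2 change of the 10 genes was -0.13 and that of all genes -0.04.

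Of the remaining genes, eag and Elk came closest to the threshold. eag stood at 71.0% of Canton-S (log2 difference -0.52, SE 0.16, adjusted p = 0.056 by limma) and Elk at 77.2% (-0.38, SE 0.12, adjusted p = 0.057). Both were lower in each of the 2 single mutant libraries, and in both replicate 2 was the further from Canton-S. Without replicate 2 the differences were -0.22 for both genes (adjusted p = 0.204 and 0.265 by limma), and without replicate 1 they were -0.82 and -0.54 (adjusted p = 0.00559 and 0.0269). In these fits the lone single mutant library is assumed to vary like the other groups. Groups that did not overlap were found for 4 genes, Sh, eag, Elk and SK, all lower, where 30.7% of all genes were lower without overlap.

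The remaining 7 genes stood at 89.0% to 97.0% of Canton-S in the single mutant. The 95% interval of the log2 difference from Canton-S was -0.24 to 0.15 for Shal, -0.28 to 0.21 for sei, -0.46 to 0.10 for Shab and -0.36 to 0.16 for slo. Shaw had an interval of -0.21 to 0.12, KCNQ of -0.34 to 0.21 and Sh of -0.33 to -0.01. Without single mutant replicate 1, 4 genes were called lower, Shab and SK among them with eag and Elk. Without double mutant replicate 3, which is in neither group of this comparison, 3 were called, SK, eag and Elk.

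The third comparison set the double mutant against the single mutant, separate lines that differ in the deletion of fne. The reads left at elav differed as well, with means of 28.9 CPM in the single and 55.9 CPM in the double mutant. Here 8 of the 10 genes were lower, where 16.7% of all genes were called lower, 26.8% higher and 43.4% in either direction. The same 8 had groups that did not overlap, where 24.1% of all genes were lower without overlap. Neuronal markers had 9 of 13 lower (median log2 change -0.81) and glial markers 5 of 8 lower and 1 higher (median -0.56). Neuroblast markers had 8 of 8 higher (median 1.84) and muscle markers 6 of 13 higher (median 1.83), and the part of these cell types in the values was not tested. Shal, sei and Shab fell to 27.4%, 26.7% and 30.7% of the single mutant mean, with log2 changes of -1.86, -1.85 and -1.68 (SE 0.08, 0.11 and 0.12; adjusted p = 7.5e-06, 1.3e-05 and 3.0e-05 by limma). slo fell to 45.9% and Elk to 53.9%, with log2 changes of -1.12 and -0.88. Sh and Shaw were at 65.7% and 66.2%.

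For SK and eag the third comparison depended on single libraries. SK, which had fallen in the single mutant, was lower again by a log2 change of -0.33 (SE 0.10, adjusted p = 0.031 by limma), and 12 of 20 alternatives called it (adjusted p = 0.000788 to 0.156). The call was lost when Canton-S replicate 1 or 2, single mutant replicate 1, or double mutant replicate 1 or 3 was left out. eag had a log2 difference of 0.14 (SE 0.16, 95% interval -0.23 to 0.51, adjusted p = 0.50 by limma), and without single mutant replicate 1 it was called higher in the double mutant, at 0.44 (adjusted p = 0.0166, over all alternatives 0.0166 to 0.986). KCNQ had a difference of -0.04 (SE 0.12, 95% interval -0.31 to 0.24). Each genotype enters a pair of the 3 comparisons, so their values are not independent of each other.

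**Figure D4:**
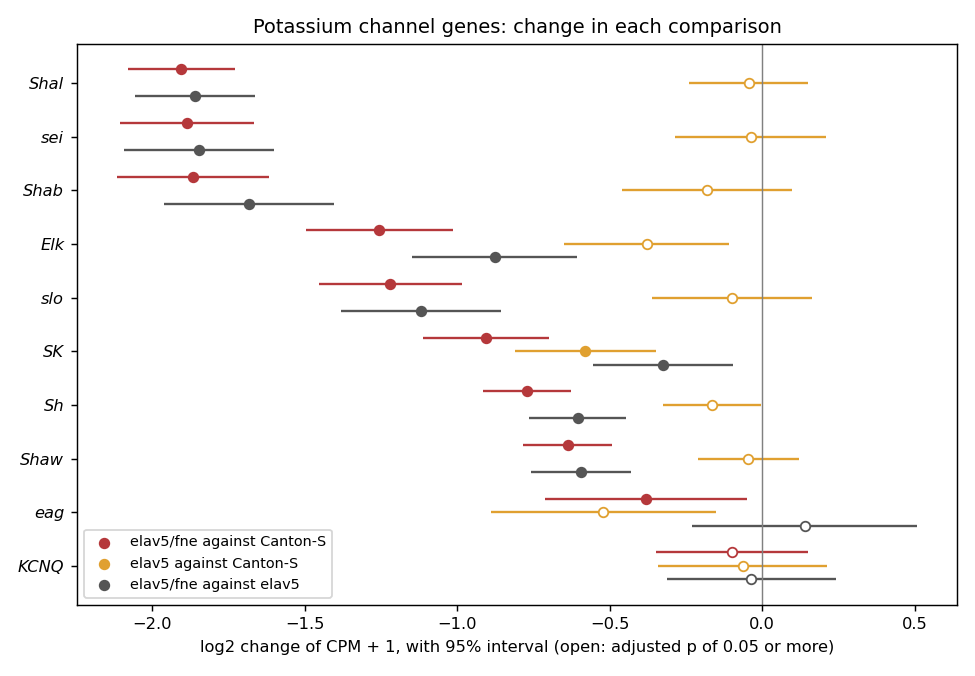
Log2 change of each gene (horizontal axis) in the 3 comparisons, with 95% intervals from limma; filled points passed the adjusted threshold of 0.05. The elav5 points lie near 0 for Shal and sei, where the elav5/fne points lie near -1.9, and SK is the only gene filled in all 3 comparisons.

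The genes differ in annotated structure in ways that the choice of the set did not use. Their median span was 50931 bases against 2160 for the 13883 protein-coding genes of the table, with a median of 8 annotated transcripts against 2. The median length of the longest annotated 3' UTR was 2473 bases against 213. Coding genes without an annotated 3' UTR were kept in that median as the shortest. The 13883 genes also include genes too low to be tested. Wide spans and long 3' UTRs were not particular to the set. Among the 13 neuronal markers the span ran from 2772 (VGAT) to 78070 bases (para), with 1 to 60 annotated transcripts. Their longest 3' UTRs ran from 522 (VGAT) to 8785 bases (cpx). The longest among the 10 were those of Sh (7861 bases), SK (5441), eag (4731) and slo (4185), and the shortest were those of sei (95) and KCNQ (178). Shal and Shab had 1770 and 2225 bases. Any relation of 3' UTR length to the falls in the double mutant was not tested. Whole-gene CPM values say nothing of the 3' end or splice form in use.

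Genes that work with these channels, or carry potassium by other pores, were taken from a list of 25, all of which were tested. In the double mutant 14 were lower and 5 higher against Canton-S, with a median log2 change of -0.32. Over all genes tested 26.7% were lower and 32.5% higher, so the list had a larger share of lower and a smaller share of higher calls. Among the 5 auxiliary genes 4 were lower. qvr (quiver, also called sleepless), a small membrane-anchored protein that promotes Sh currents and sleep, fell from 278 ± 7.34 to 41.3 ± 4.05 CPM (n = 3 each, log2 change -2.73, SE 0.08, adjusted p = 1.1e-06 by limma), deeper than any of the 10 pore genes. Hk (Hyperkinetic), the beta subunit of Sh, fell from 176 ± 4.49 to 62.2 ± 5.32 CPM (log2 change -1.49, SE 0.11, adjusted p = 2.0e-05). Slob, a partner of slo, fell by 0.38 on the log2 scale. SKIP, named for its interaction with Shal, had a log2 difference of 0.07 (adjusted p = 0.72). Sh itself had fallen by 0.77 on that scale, less than either Hk or qvr.

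Among the 16 other pore-forming genes 7 were lower and 5 higher, the latter a share near that over all genes. Lower were Shawl, a close relative of Shaw (log2 change -0.81), SLO2, a relative of slo (-0.66), and 5 leak channels of the tandem-pore family, Ork1, CG43155, CG1688, Task7 and Task6. The count of higher genes was 3 under quantile normalization or without Canton-S replicate 3. It was 4 under most other alternatives, among them median-ratio scaling, a pseudocount of 5, edgeR and DESeq2. It stayed at 5 with a pseudocount of 0.1, or without Canton-S replicate 1, double mutant replicate 1 or double mutant replicate 2. The 5 that rose, named after their values were seen, included genes at low levels. CG34396 went from 1.36 ± 0.555 to 10.5 ± 1.77 CPM, Irk3, an inward rectifier, from 13.8 ± 2.31 to 37.6 ± 4.38 CPM, and CG10864 from 6.93 ± 0.529 to 13.8 ± 0.882 CPM. sand, a leak channel known from sleep-control neurons, went from 1.40 ± 0.672 to 4.40 ± 2.34 CPM, and Irk2 from 49.2 ± 4.28 to 61.9 ± 9.74 CPM. Irk2 was close to the threshold (adjusted p = 0.048 by limma and 0.095 by edgeR). In sand, Irk2 and CG34396 the highest value, 73.0 CPM for Irk2 and 12.5 CPM for CG34396, was that of double mutant replicate 3, the library with the highest muscle and gut markers, whose part in these values was not tested. Of 4 cyclic nucleotide-gated relatives of eag 3 were lower, among them Ih, the pacemaker channel, which fell from 496 ± 15.2 to 188 ± 9.36 CPM (log2 change -1.39, SE 0.07, adjusted p = 3.0e-06).

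**Figure D5:**
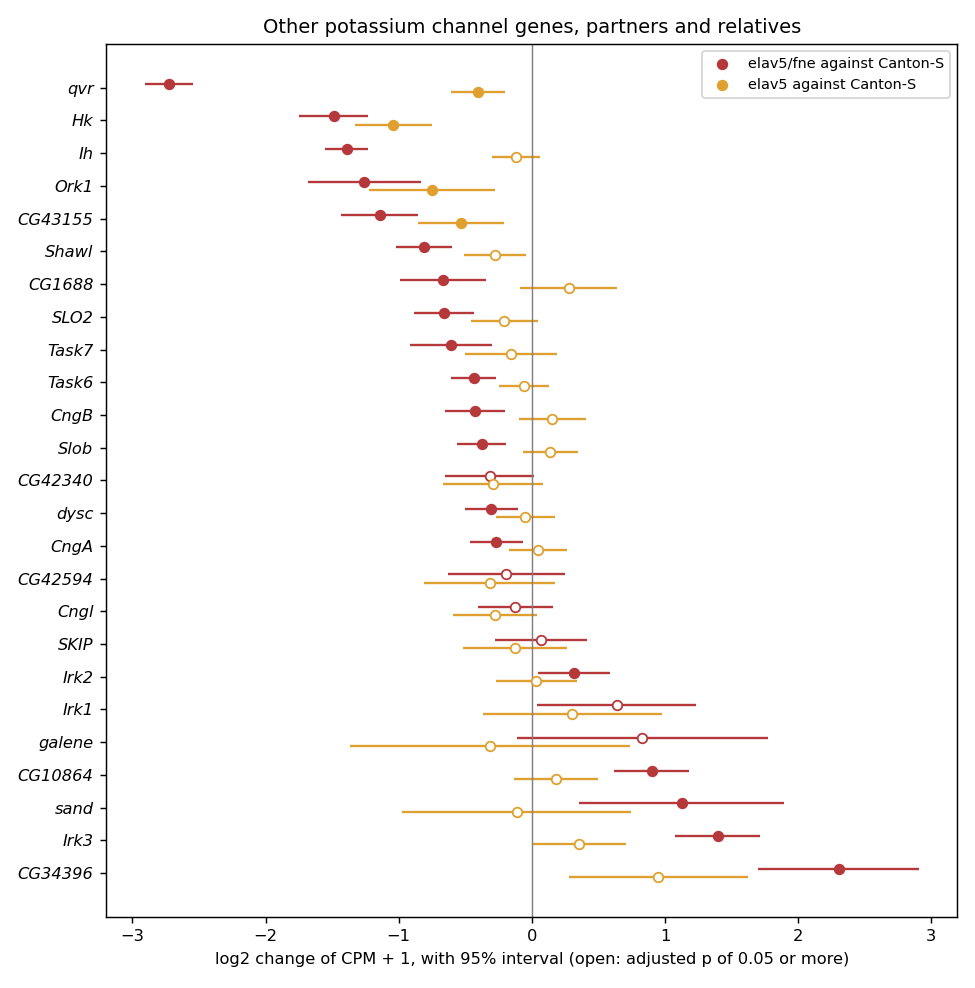
Log2 change of the 25 related genes (horizontal axis) in elav5/fne and in elav5 against Canton-S, with 95% intervals from limma; filled points passed the adjusted threshold of 0.05. qvr lies at -2.73 and Hk at -1.49 in elav5/fne, and the 4 genes filled in elav5 all lie below 0.

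In the single mutant 4 of the 25 genes were lower than in Canton-S and none was higher. Over all genes 11.8% were lower, near the share of the list (16.0%), and 8.29% higher. Median-ratio scaling, edgeR, DESeq2 and the fit without double mutant replicate 3 were among the alternatives that called 1 higher. Hk fell to 48.8% of Canton-S, at 85.8 ± 16.8 CPM (n = 2, log2 change -1.04, SE 0.12, adjusted p = 0.0029 by limma), under all 20 alternatives. qvr fell to 75.5%, at 210 ± 5.06 CPM (log2 change -0.40, SE 0.09, adjusted p = 0.019), and was called under 15 of 20 alternatives (adjusted p = 0.00806 to 0.0683). Ork1 and CG43155, with log2 changes of -0.75 and -0.53 (adjusted p = 0.04 and 0.033), were called under 11 and 7 of 20 alternatives. With 1 library left out the count of these 25 genes was 1 to 6, namely 1 without Canton-S replicate 1, Canton-S replicate 2 or single mutant replicate 2, 2 without Canton-S replicate 3 or double mutant replicate 2, and 6 without double mutant replicate 3.

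The genes closest in pattern to Shal, the member with the largest fall in log2(CPM + 1), were sought among 7574 other genes with a Canton-S mean of at least 5 CPM, by the root mean square difference over the 8 libraries in log2(CPM + 1) less its Canton-S mean. They were CG7990, FucTA and Ktl, at distances of 0.09, 0.09 and 0.10. On other scales (quantile normalization, a pseudocount of 0.1, edgeR and DESeq2) the fall of sei was larger than that of Shal. Ktl had means of 828, 820.1 and 227 CPM in Canton-S, the single and the double mutant. The closest to KCNQ, the member with the smallest difference, were Sec71, CG3032 and mus201, at distances of 0.06 each. The distances are a description of these 8 libraries.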

How the data were processed

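Expression was deposited as CPM per gene, 1 column for each of 8 libraries. The submitters' processing notes name HISAT2 and dm6, and the labels' protocols a stranded total RNA kit. Which counter, annotation and strand setting the authors used is not given in the sources used here. CPM columns sum to 1000000, and dividing by the step between low values returned whole numbers for 100% of values above 0 (tolerance 0.01). Symbols missing or turned into dates were filled from gene IDs for 55 genes. Lengths, coordinates and overlaps come from Ensembl BDGP6.54 (Release 6, dm6 coordinates). 3 reads correspond to 0.0788 to 0.0999 CPM, a floor for counting error only.

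The fit covered 10575 genes that reached 1 CPM in 2 or more libraries. It used limma 3.58.1 (R 4.3.3) on log2(CPM + 1), with the trend option, 1 mean per genotype, all 8 libraries and Benjamini-Hochberg adjustment. Since elav5 has 2 libraries, its test leans on the spread of the other groups. A fold change on this scale understates the change of low genes. edgeR 4.0.16 (quasi-likelihood, TMM) on the recovered reads called 6404, 1979 and 4313 genes in the 3 comparisons, and limma 6259, 2124 and 4593. Alternatives were edgeR, DESeq2 1.42.0, other scalings, pseudocounts and filters, limma without trend, fits of 2 groups, a replicate block and each library left out. The fit was also run on simulated counts, in which far fewer genes changed than were called here, so that run does not vouch for the calls. Whether libraries of a genotype came from different animals is not said in the labels, and p-values then measure only the spread between these samples, which may be technical. Members, lists and tests were chosen with earlier results of these data known. Named genes were the members, the 4 related genes with the smallest p in the double mutant, those called in the single mutant, the 3 nearest patterns, and the 2 highest markers of each list, not all of which are printed. Further related genes that are named (Slob, SKIP, Shawl, SLO2, the leak channels and the genes that rose) were chosen after their values were seen. No sequences are shown.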

Additional observations from a re-analysis of the deposited data

How the results depend on the processing

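Each of the 30 member values (10 genes in 3 comparisons) was recomputed under 20 alternatives, 600 values in all. No called value changed direction, 574 kept their side of the threshold, 18 lost and 8 gained a call. Those that moved were eag and SK, losing calls, and eag, Elk, Shab and KCNQ, gaining them. The count of members called was 8 to 10 in the double mutant, 8 to 9 with 1 library left out and 10 when single mutant replicate 2 was left out together with double mutant replicate 3, which gave 1 and 8 in the other comparisons. Against the single mutant it was 7 to 8, the same range with 1 library left out. In the single mutant against Canton-S the count was 1 to 4 with 1 library left out, and 2 with a filter at a mean of 5 CPM, where eag was added. The replicate number as a block gave 8, 1 and 7 members in the 3 comparisons and 932 genes in place of 2124 in the single mutant. Same-numbered libraries did not deviate together (r from -0.364 to 0.11), so the numbers were not taken as pairs. Under quantile normalization the median log2 change over all genes tested was -0.11 in place of 0.07 in the double mutant and -0.07 in place of 0.14 between the mutants, and it moved the share of calls that were higher from 54.9% to 41.3% and from 61.6% to 43.0%. DESeq2 moved that share from 41.3% to 52.4% in the single mutant. All genes called there numbered 904, 1053 and 806 without Canton-S replicate 1, Canton-S replicate 2 or single mutant replicate 2. The count of the 25 related genes in the single mutant was 2 under quantile normalization, no filter or the block. With 2 or 3 libraries per group, the spread between libraries rests on few values, and sei, the member with the fewest reads, had at least 528 in each.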

Other observations

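Shares of the summed CPM of the 10 genes were computed within each library and are given in the order Canton-S (n = 3), elav5 (n = 2) and elav5/fne (n = 3), as mean ± SD. KCNQ took 1.57% ± 0.0276, 1.70% ± 0.0356 and 3.23% ± 0.549, and eag took 5.10% ± 0.115, 4.05% ± 0.691 and 8.59% ± 0.543. Shab took 17.9% ± 0.468, 17.9% ± 1.59 and 10.8% ± 0.394, and Shal 12.1% ± 0.460, 13.3% ± 0.586 and 7.07% ± 0.0583. slo, the largest share in Canton-S, held 23.6% ± 0.198, 24.9% ± 0.510 and 22.2% ± 0.947. SK held 9.32% ± 0.0355, 7.05% ± 0.0892 and 10.9% ± 0.481, the lowest share being that of elav5. The shares are not independent, since a lower share of some genes raises that of others.

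Sh, eag and SK are the 3 members on the X chromosome, where elav and fne also lie. In the single mutant their log2 differences were -0.17 (Sh), -0.52 (eag) and -0.58 (SK), and only SK was called. Elk on 2R and Shab on 3L stood at -0.38 and -0.18. Of the 4 related genes called lower there, Hk, Ork1 and CG43155 lie on the X chromosome and qvr on 2R. CG42594, CG42340 and Cngl, also on the X chromosome, were not called. The part of the chromosome in these values was not tested. Over all genes tested, the median log2 change in the single mutant was -0.07 for the 1751 genes of the X chromosome and -0.03 for the 8763 genes of chromosomes 2, 3 and 4, and 12.2% and 11.7% of them were called lower.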
